A study of Mus musculus with 12 samples.

Results

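The 10 core circadian clock genes measured here are Per1, Per2, Per3, Cry1, Cry2, Clock, Npas2, Ciart, Nr1d1 and Nr1d2. They were taken by gene symbol from a table of 78298 genes, each symbol matched 1 protein-coding gene, and all 10 were among the 18600 genes that passed the filter on low counts. Their poly(A) RNA was measured in the hippocampus of male C57BL/6 mice, bought at 6 to 8 weeks of age and kept in a 12-h light/dark cycle, in 12 libraries of 4 per group. Treatment mice went through chronic unpredictable mild stress for 28 days and were also given poricoic acid A (20 mg/kg by gavage, once daily for 14 days from day 15), a triterpenoid that the fungus Poria cocos makes. Model mice went through the same stress and received saline, and Control mice received saline and were not stressed. All mice had been selected for a preference for sucrose before the experiment. The schedule was a model of depression made of changing mild stressors. It included overnight illumination, flashing light for 7 h, withdrawal of food or water for 10 h and restricted feeding (2 h). Light and feeding themselves therefore varied in Treatment and Model. The hour of tissue collection is not given in the sources used here. The labels give 4 per group but not whether every library comes from its own animal; p-values therefore reflect only how much these samples vary, part of which may be technical.

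The molecular clock is a transcriptional feedback loop that runs in most cells with a period of about a day. The proteins CLOCK or NPAS2 pair with BMAL1 and activate genes that carry E-box elements, among them the Per and Cry genes, Ciart, Nr1d1 and the output gene Dbp. PER and CRY proteins, and CIART (also called CHRONO), then repress that activation. The nuclear receptors NR1D1 and NR1D2 (REV-ERB alpha and beta) repress Bmal1, Clock, Npas2 and Cry1 through elements that ROR receptors also bind. The hippocampus has a clock of its own, and Per1 is also known as a rapid target of glucocorticoids and of neuronal activity.

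Promoter sequence is shown for Ciart, Per1 and Nr1d1, 3 of the members that hold an E-box or an E′-box. Ciart and Per1 were each called in a comparison below, and Nr1d1 was not called in the main fit. The windows of Npas2 and Clock held neither element. RefSeq windows of build GRCm38.p6, from 250 bases before to 50 bases after a transcription start, matched 9 of the 10 genes with 12 windows; Per2 was not matched. The 250 bases before the start of Ciart (chr3:95882229-95882478, minus strand), of the first listed start of Per1 (chr11:69098699-69098948, plus strand) and of Nr1d1 (chr11:98775378-98775627, minus strand) follow from 5′ to 3′. Capitals mark the E-box CACGTG in Ciart and Per1, and in Nr1d1 the E′-box CACGTT, which lies on the other strand and so reads AACGTG here.
Ciart: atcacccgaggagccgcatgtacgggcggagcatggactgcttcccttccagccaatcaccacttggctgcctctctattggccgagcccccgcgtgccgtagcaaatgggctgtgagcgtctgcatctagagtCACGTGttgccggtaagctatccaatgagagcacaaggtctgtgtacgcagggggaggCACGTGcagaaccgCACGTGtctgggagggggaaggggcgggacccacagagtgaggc
Per1: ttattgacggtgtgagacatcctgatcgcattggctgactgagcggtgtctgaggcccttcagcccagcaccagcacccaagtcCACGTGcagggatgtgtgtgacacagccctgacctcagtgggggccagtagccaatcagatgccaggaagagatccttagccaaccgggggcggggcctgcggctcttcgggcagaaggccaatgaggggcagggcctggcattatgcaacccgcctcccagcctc
Nr1d1: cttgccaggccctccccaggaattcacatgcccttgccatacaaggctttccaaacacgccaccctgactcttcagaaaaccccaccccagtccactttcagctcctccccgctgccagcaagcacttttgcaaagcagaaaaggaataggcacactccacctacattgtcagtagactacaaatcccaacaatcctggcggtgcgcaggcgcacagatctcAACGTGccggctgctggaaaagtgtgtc
The E-box stood in Ciart at positions -116, -58 and -44 from the start, in Per1 at -166 and in Cry1 at -60. These are 3 of the 9 genes and 3 of their 12 windows, beside 7.15% of 32851 mouse promoter windows of the same length. The E′-box CACGTT was found in Cry1 at -79, in Cry2 at -166 and in Nr1d1 at -28, against 4.68% of all windows. The D-box, bound by DBP and its relatives, was searched only as TTATGTAA and was found in Per3 at -205 and -158 (0.938% of all windows). The similar letters TTATGCAA, which the Per1 sequence above holds, were not searched for. The ROR-type element TNGGTCA was found in Per3 at -118 and in Cry2 at -133 (11% of all windows). Both strands were searched, and the cAMP response element TGACGTCA (1.79% of all windows) had no match in these windows. A match describes the letters of the window and not a bound site.

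**Figure D1:**
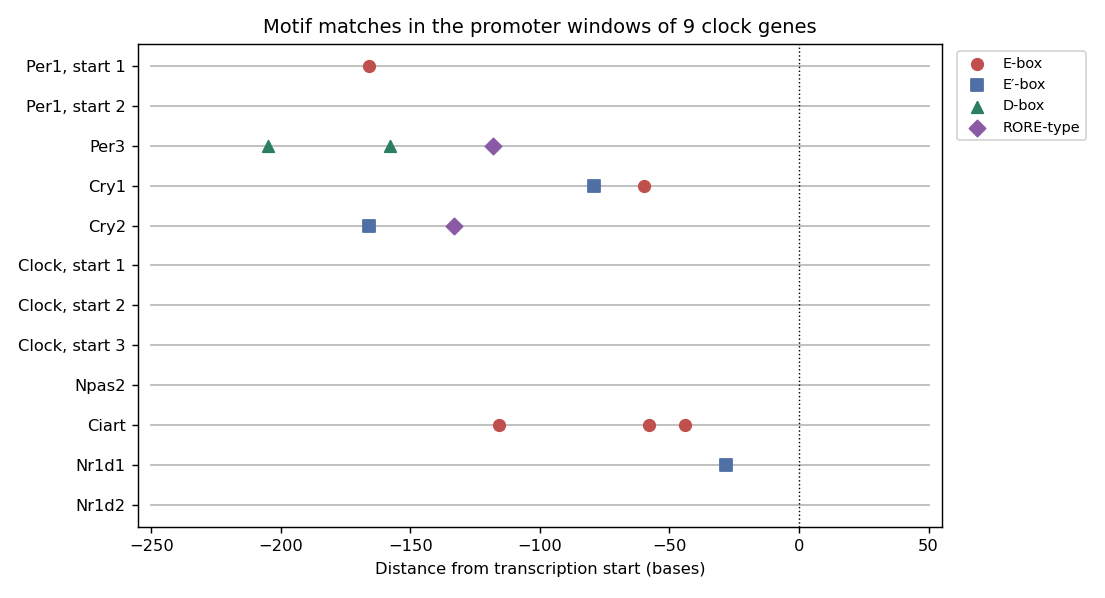
Positions of motif matches in the RefSeq promoter windows of 9 clock genes. The x axis is the distance from the transcription start in bases, each row is a window, and symbols mark the E-box, E′-box, D-box and ROR-type element. Ciart has 3 E-box matches, at -116, -58 and -44.

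All 10 genes were expressed in every library, from 94 estimated counts for Ciart in Model replicate 1 upwards. On the FPKM scale, which takes gene length into account, Nr1d1 had the highest level (40.9 ± 4.50 FPKM, SD, n = 12 libraries), followed by Cry2 (36.0 ± 1.71 FPKM) and Nr1d2 (31.7 ± 3.75 FPKM). Per1 (15.6 ± 2.50 FPKM), Per3 (13.5 ± 1.05 FPKM), Clock (13.1 ± 1.72 FPKM) and Npas2 (12.0 ± 2.42 FPKM) lay in the middle. Ciart (7.57 ± 2.72 FPKM), Per2 (6.64 ± 0.92 FPKM) and Cry1 (4.79 ± 0.53 FPKM) were lowest. Each of Cry2, Nr1d2 and Per2 was above the next gene in 12 of 12 libraries, and Nr1d1 above Cry2 in 11 of 12. Per3 was above Clock in 7 of 12, Clock above Npas2 in 8 of 12 and Ciart above Per2 in 7 of 12. The order of these neighbours differed between the groups. Ciart averaged 8.25 ± 2.61 FPKM in Treatment, 4.79 ± 0.94 FPKM in Model and 9.68 ± 1.62 FPKM in Control (SD, n = 4 each, as below). Per2 averaged 7.09 ± 1.31, 5.99 ± 0.63 and 6.85 ± 0.34 FPKM in Treatment, Model and Control. In the same order of groups, Per3 averaged 14.1 ± 0.97, 12.6 ± 0.96 and 13.8 ± 0.71 FPKM. Clock averaged 12.4 ± 2.56, 14.5 ± 0.24 and 12.5 ± 0.64 FPKM, and Npas2 14.7 ± 1.31, 11.5 ± 0.85 and 9.88 ± 1.78 FPKM.

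**Figure D2:**
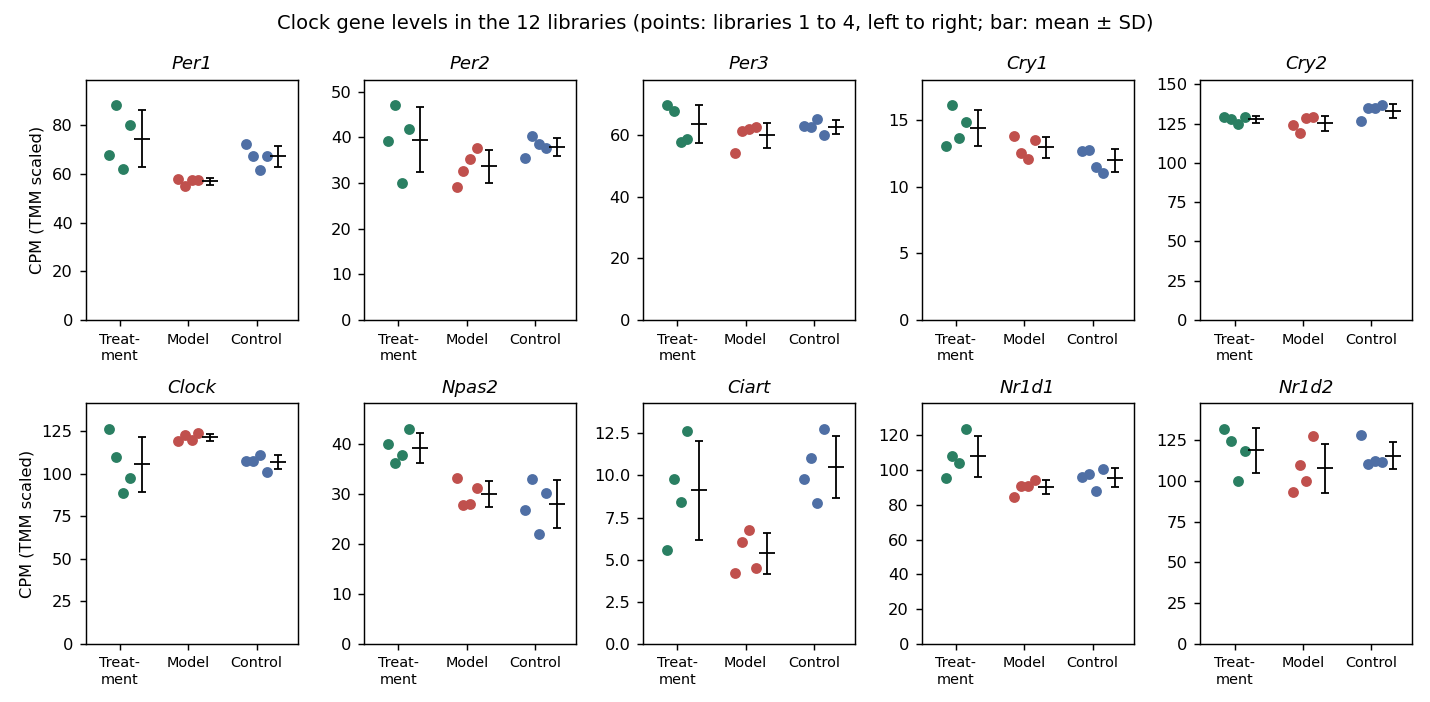
Level of each clock gene in every library, in CPM on library sizes scaled by TMM (y axis), for Treatment, Model and Control (x axis). Points are libraries 1 to 4 from left to right and the bar beside them is the mean ± SD. The 4 Model libraries of Ciart lie between 4.18 and 6.76 CPM, below the 4 Control libraries at 8.38 to 12.8 CPM.

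The comparison of Model with Control asked what 28 days of stress did to clock transcripts. Ciart was lower in Model by 49.2%, and no other member passed. CPM values, which are estimated counts scaled by TMM to a common library size, are not corrected for length and are compared below within a gene. Ciart had 4.18, 6.06, 6.76 and 4.51 CPM in Model replicates 1 to 4, against 9.81, 11.04, 8.38 and 12.8 CPM in Control. These rest on 94 to 145 estimated counts per library in Model and 144 to 312 in Control. The highest Model library lay below the lowest Control library. The log2 fold change was -0.98 ± 0.22 (SE, 95% confidence interval -1.43 to -0.52; edgeR quasi-likelihood test, Benjamini-Hochberg adjusted p = 0.0475). Thus 1 of 10 members was called, 0 higher and 1 lower, beside 0.79% of the 18600 genes in this comparison (0.452% lower). In tissue RNA, fewer cells of a type and less RNA per cell cannot be told apart.

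This Ciart call depended on the libraries and the model. Without each of the 12 libraries in turn its log2 fold change stayed between -1.10 and -0.87, but its adjusted p lay between 0.0227 and 0.144 and was under 0.05 in 3 of 12 cases, those without Treatment replicate 1, 3 or 4. It did not pass without any 1 of the 8 Model and Control libraries. The count of called genes moved over all genes as well. It was 147 with all libraries, 8 without Control replicate 1 and 273 without Treatment replicate 3. Of 17 markers of the choroid plexus, a secretory epithelium next to the hippocampus, 17 had a negative fold change and 1 passed: they summed to 1184 to 1656 CPM in Model and to 1414 to 4229 CPM in Control, and none was at 0. With the mean score of these markers in the model the log2 fold change of Ciart was -1.07 ± 0.27 with an adjusted p of 0.216 (edgeR). The 10 microglial markers summed to 336 to 385 CPM in Model and 378 to 404 CPM in Control, with none at 0. Their mean score, in log2 units around the mean of the 12 libraries, did not overlap. It was -0.19 to -0.01 in Model and 0.04 to 0.1 in Control, and 9 of the 10 fold changes were negative. The 11 markers of CA2 and CA3 pyramidal neurons summed to 1833 to 1961 CPM in Model and 1505 to 1737 CPM in Control, again with none at 0. The most abundant were Nptx1 (on average 745 CPM in Model and 588 CPM in Control) and Chgb (605 and 514 CPM). The mean score of this list overlapped, at -0.02 to 0.12 in Model and -0.12 to 0.09 in Control. Of its fold changes 8 were positive and 3 negative. The part of either list in the result was not tested. Ciart also overlaps the transcript C920021L13Rik on the opposite strand over 3749 bases in the GENCODE vM21 annotation, and the strand setting of the counting is not given in the sources used here. That transcript differed by -0.14 ± 0.19 (adjusted p = 0.781), at 3.89 ± 0.65 CPM in Model and 4.28 ± 0.77 CPM in Control (SD, n = 4 each). In the deposited table, on build GRCm39, Ciart (ENSMUSG00000038550) spans chr3:95785815-95789517.

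The other repressors differed less. Per1, which encodes a PER protein, had 57.8, 54.98, 57.7 and 57.6 CPM in Model, against 72.4, 67.3, 61.7 and 67.3 CPM in Control. The groups did not overlap, and the Model libraries lay close together, but the change of -0.24 ± 0.09 (edgeR, adjusted p = 0.212) did not pass. Per2 and Per3 averaged 33.6 ± 3.66 and 59.8 ± 3.97 CPM in Model, against 37.9 ± 2.00 and 62.6 ± 2.19 CPM in Control. Their intervals, -0.41 to 0.06 and -0.22 to 0.09 log2 units, include 0. Cry1 and Cry2, which encode the cryptochromes that act with PER as repressors, averaged 13.0 ± 0.80 and 125 ± 4.86 CPM in Model, against 12.0 ± 0.86 and 133 ± 4.53 CPM in Control. Both intervals include 0 as well, from -0.08 to 0.30 for Cry1 and from -0.19 to 0.02 for Cry2. Per3 lies within the span of Camta1 on the same strand, and Camta1 itself was higher in Model (0.27, adjusted p = 0.0337, edgeR), so reads of the pair may be split between them.

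On the activator side, Clock had 119.5, 123, 120 and 124 CPM in Model, against 107, 108, 111 and 101 CPM in Control. All 4 Model libraries were above all 4 Control libraries, and the change of 0.19 ± 0.08 (edgeR, adjusted p = 0.288) did not pass. Npas2, the alternative partner of BMAL1, averaged 30.1 ± 2.63 CPM in Model and 28.0 ± 4.75 CPM in Control, with overlapping libraries and a difference of 0.10 ± 0.11 log2 units. The receptors Nr1d1 (90.2 ± 4.14 CPM in Model, 95.5 ± 5.42 CPM in Control) and Nr1d2 (108 ± 15.0 and 116 ± 8.43 CPM) also overlapped between Model and Control. In all, 3 of 10 members had groups that did not overlap, 1 higher (Clock) and 2 lower (Per1 and Ciart), while 11.4% of all tested genes did not overlap between Model and Control (5.95% higher and 5.46% lower). The median log2 fold change of the members was -0.09, beside -0.01 for all genes tested, with 3 positive and 7 negative values where 47.3% of all genes were positive.

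**Figure D3:**
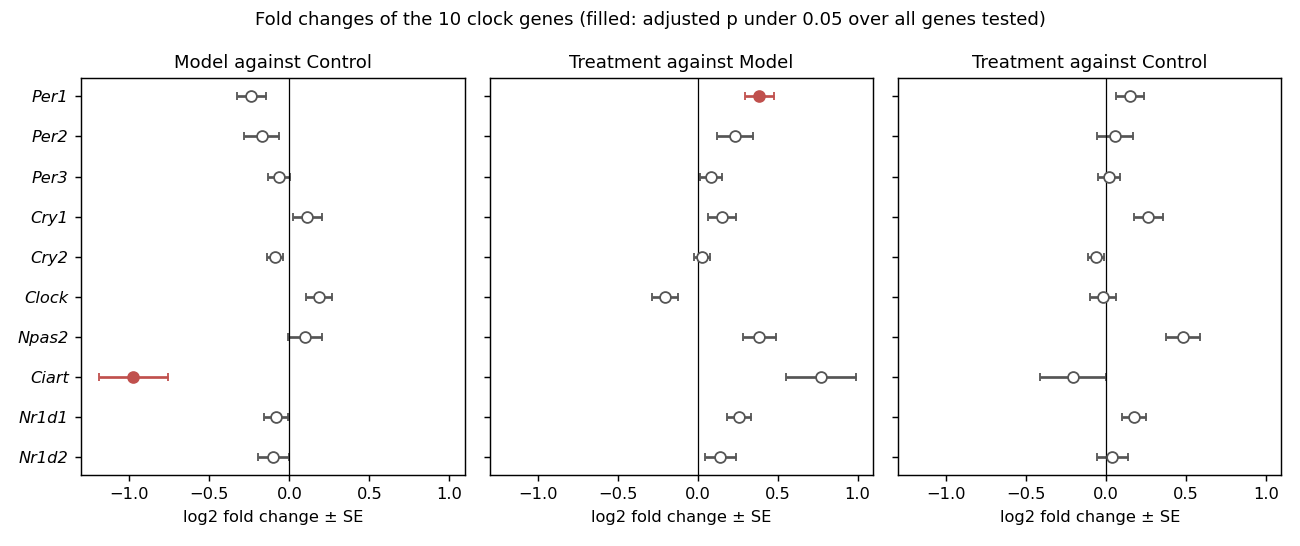
Log2 fold changes ± SE of the 10 clock genes in 3 comparisons (x axis, log2 units; genes on the y axis), from the edgeR model of all 12 libraries. Filled points have an adjusted p under 0.05. These are Ciart in Model against Control (-0.98) and Per1 in Treatment against Model (0.39).

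The comparison of Treatment with Model asked what the compound did in stressed mice. It shares the 4 Model libraries with the comparison above, so opposite signs in both are tied to those libraries and are not counted as a result. Per1 (ENSMUSG00000020893, chr11:68986043-68997284 on GRCm39 in the deposited table) was higher in Treatment by 30.7%, with 67.6, 88.1, 62.2 and 80.1 CPM in Treatment, against 57.8, 54.98, 57.7 and 57.6 CPM in Model. The lowest Treatment library lay above the highest Model library, and the Treatment libraries were spread more widely (coefficient of variation 15.8%, against 2.39% in Model). The log2 fold change was 0.39 ± 0.09 (95% confidence interval 0.20 to 0.58; edgeR quasi-likelihood test, Benjamini-Hochberg adjusted p = 0.0399). Thus 1 member was called, 1 higher and 0 lower, beside 1.88% of all tested genes (1.18% higher). Without each library in turn the Per1 change lay between 0.30 and 0.46 and its adjusted p between 0.0132 and 0.135, under 0.05 in 4 of 12 cases (those without Control replicate 1 or 3 or Treatment replicate 1 or 3). Over all genes the called count was 350 with all libraries, 0 without Model replicate 2, 0 without Model replicate 3 and 459 without Treatment replicate 3. With the libraries' trends on GC content and transcript length removed, a setting chosen after seeing the data, the Per1 change was 0.24 ± 0.08 with an adjusted p of 0.148.

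Ciart had 5.59, 9.78, 8.43 and 12.6 CPM in Treatment, against 4.18, 6.06, 6.76 and 4.51 CPM in Model. Treatment replicate 1 lay within the range of Model and the other 3 above it. The difference of 0.77 ± 0.22 had an adjusted p of 0.0769 (edgeR). Without Treatment replicate 1 it was 0.94 ± 0.19 with an adjusted p of 0.0287 (edgeR). That was the only call for Ciart among the 12 omissions of a library. Over these the difference ran from 0.57 to 0.94 and the adjusted p reached 0.186 (edgeR). Npas2 had 40.1, 36.1, 37.8 and 43.0 CPM in Treatment, against 33.2, 27.8, 28.0 and 31.2 CPM in Model. Its groups did not overlap, with a difference of 0.38 ± 0.10 and an adjusted p of 0.067 (edgeR).

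Nr1d1 had 95.4, 108, 104 and 124 CPM in Treatment, against 84.5, 91.1, 90.9 and 94.3 CPM in Model. Again every Treatment library was above every Model library, and the difference was 0.26 ± 0.07 with an adjusted p of 0.0773 (edgeR). Nr1d1 shares 1075 bases with Thra, a thyroid hormone receptor gene on the opposite strand, whose change was -0.02 and not called. Clock had 126, 109.6, 88.8 and 97.7 CPM in Treatment, against 119.5, 123, 120 and 124 CPM in Model. Treatment replicate 1 was the highest of the 8 libraries and the other 3 were below all of Model, with a difference of -0.20 ± 0.08 and an adjusted p of 0.201 (edgeR). Without Treatment replicate 1, Clock was called lower, at -0.30 with an adjusted p of 0.0366 (edgeR). That was the only call for Clock among the 12 omissions of a library. Over these its difference ran from -0.30 to -0.14 and the adjusted p reached 0.366 (edgeR).

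The remaining 5 members did not pass. Per2 averaged 39.5 ± 7.16 CPM in Treatment and 33.6 ± 3.66 CPM in Model, and Cry1 averaged 14.4 ± 1.35 CPM in Treatment and 13.0 ± 0.80 CPM in Model. Their intervals were -0.01 to 0.47 and -0.04 to 0.34 log2 units. Nr1d2 (119 ± 13.7 CPM in Treatment, 108 ± 15.0 CPM in Model), Per3 (63.4 ± 6.11 and 59.8 ± 3.97 CPM) and Cry2 (128 ± 2.26 and 125 ± 4.86 CPM) overlapped between these groups. Cry2 had the narrowest interval of the 10 members, -0.08 to 0.13 log2 units. In all, 3 of 10 members (Per1, Npas2 and Nr1d1) lay wholly above Model, and 9.5% of all tested genes did not overlap between Treatment and Model (5.14% higher). The members' median was 0.19, beside 0.00 for all genes, and 9 of 10 values were positive, against 50.4% of all genes. The count of called members ranged from 0 to 4 over the settings tried, and it was 4 (Per1, Npas2, Ciart and Nr1d1) in DESeq2 and without the filter on low counts. Without Treatment replicate 1 it was also 4, then Per1, Ciart and Nr1d1 higher and Clock lower.

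Markers of other regions and cell types moved with the same groups. The 12 neocortical markers summed to 604 to 703 CPM in Treatment and to 506 to 566 CPM in Model, and the 12 endothelial markers to 291 to 358 CPM in Treatment and 251 to 275 CPM in Model. The 15 markers of dentate granule cells, a principal neuron of the hippocampus, summed to 887.6 to 992.1 CPM in Treatment and 1109 to 1331 CPM in Model. The 11 markers of CA2 and CA3 pyramidal neurons summed to 1666 to 1725 CPM in Treatment and 1833 to 1961 CPM in Model. The mean score of the CA2 and CA3 list overlapped, at -0.1 to 0 in Treatment and -0.02 to 0.12 in Model. Of its fold changes 9 were negative and 2 positive. None of these markers was at 0 in any library, and their part in the results for Per1, Npas2 and Nr1d1 was not tested. The 8 markers of hippocampal neurons, such as Camk2a and Slc17a7, summed to 8012 to 8607 CPM in Treatment, 8422 to 9714 CPM in Model and 7705 to 8623 CPM in Control. None was at 0. Their mean score was higher in every Model library, at -0.1 to -0.03 in Treatment, 0.04 to 0.2 in Model and -0.12 to 0.02 in Control. In Model against Control 8 of 8 fold changes were positive, and in Treatment against Model 6 were negative and 2 positive. The part of this list in the results was not tested either. Library totals were 17083260 to 27479083 estimated counts, and the library names of Treatment replicates 2 and 3 (1631 and 1636) stand apart from the other 10 (1868 to 1898). The labels give batch 1 for every library. Without those replicates the counts of members called remained 1, 1, 0 and 0 in the 4 comparisons.

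The comparison of Treatment with Control asked where stressed mice given the compound differed from unstressed ones. In edgeR 0 of 10 members passed, 3 had an unadjusted p under 0.05 (13.9% of all genes did), and 0.102% of all tested genes were called. DESeq2 called 1 member, Npas2. Npas2 had 40.1, 36.1, 37.8 and 43.0 CPM in Treatment, against 26.8, 33.0, 22.0 and 30.3 CPM in Control. The groups did not overlap, and the change was 0.48 ± 0.10 with an adjusted p of 0.0865 (edgeR). It was 0.49 ± 0.11 with an adjusted p of 0.00303 in DESeq2.

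Cry1 had 13.1, 16.1, 13.6 and 14.9 CPM in Treatment, against 12.7, 12.8, 11.5 and 11.04 CPM in Control. It too did not overlap (0.26 ± 0.09, adjusted p = 0.202, edgeR), and these 2 of 10 members compare with 7.24% of all tested genes (3.99% higher). Ciart averaged 9.11 ± 2.92 CPM in Treatment and 10.5 ± 1.86 CPM in Control, with an interval of -0.65 to 0.23 log2 units, and Per1 averaged 74.5 ± 11.8 CPM in Treatment and 67.2 ± 4.38 CPM in Control (-0.04 to 0.34). Both intervals include 0. Nr1d1, at 108 ± 11.8 CPM in Treatment and 95.5 ± 5.42 CPM in Control, differed by 0.18 ± 0.07 with an adjusted p of 0.301 (edgeR). The other 5 members differed by between -0.06 and 0.06 log2 units.

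With Model and Treatment together against Control, 0 of 10 members passed in edgeR, 3 had an unadjusted p under 0.05 (13.3% of all genes did), and 0.22% of all genes were called; DESeq2 called 0 members as well. The 3 were Ciart (-0.59 ± 0.18, adjusted p = 0.164), Npas2 (0.29 ± 0.09, adjusted p = 0.182) and Cry1 (0.19 ± 0.08, adjusted p = 0.306). This comparison uses the same libraries as the others.

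The levels of some members varied together over the 12 libraries, which share their groups, depth and composition, so the correlations of log2 CPM are given as a description. Over the 45 pairs of members Pearson's r ran from -0.74 to 0.76 with a median of 0.28, and 35 pairs were positive. Taken as deviations from group means the median was 0.18. The pair most alike over all libraries was Per1 and Nr1d1 (r = 0.76, Spearman's rho = 0.73), with r = 0.52 within groups. Ciart and Nr1d1 had r = 0.68 (rho = 0.74) and r = 0.84 within groups, and Per1 and Per2 had r = 0.74 (rho = 0.67) and r = 0.66 within groups. Without the 2 libraries farthest from the median of the first gene of each pair, r was 0.53 for Per1 and Nr1d1, 0.62 for Ciart and Nr1d1 and 0.47 for Per1 and Per2. Clock ran against Ciart (r = -0.74, rho = -0.80) and against Nr1d1 (r = -0.65, rho = -0.67), with r = -0.56 and r = -0.50 within groups. Without the 2 libraries farthest from the median of Clock, r was -0.92 and -0.74. Clock rose and fell with Per3 within groups (r = 0.82), less so over all libraries (r = 0.34).

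**Figure D4:**
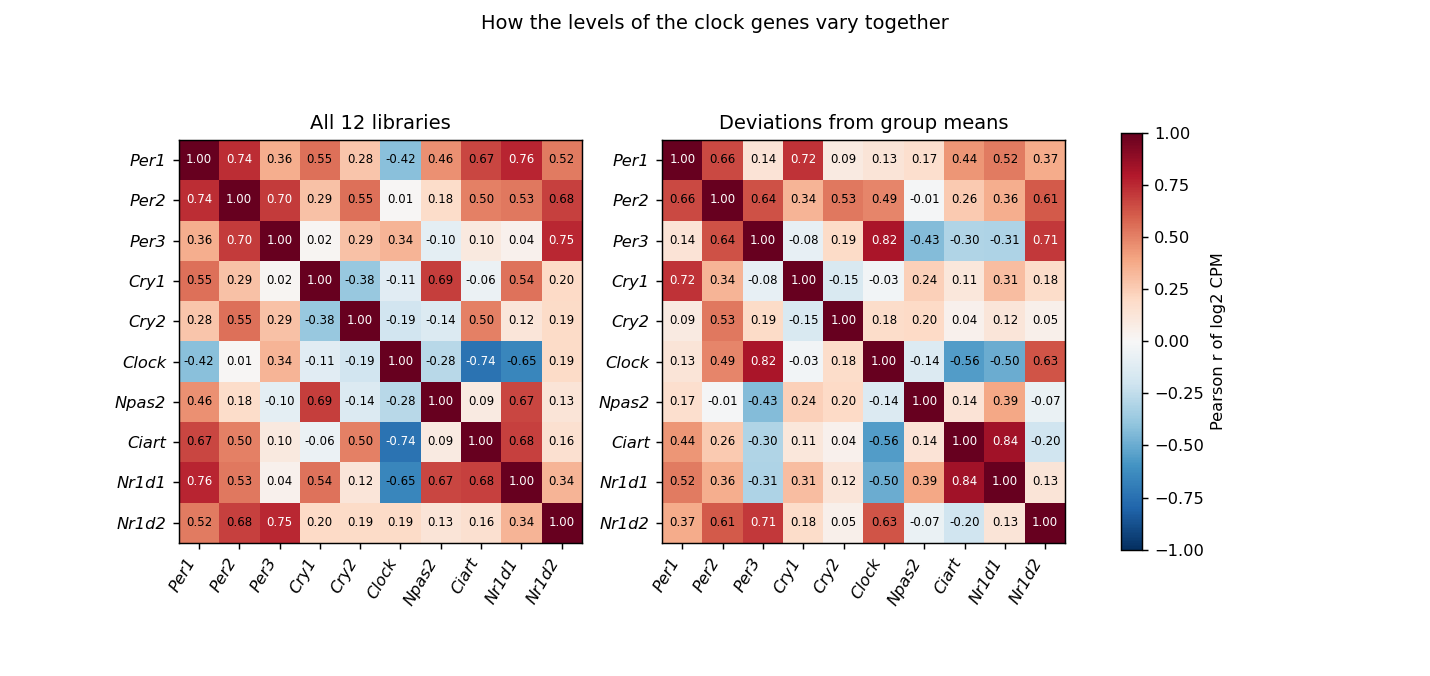
Pearson correlation of log2 CPM between the 10 clock genes over all 12 libraries (left) and of deviations from the group means (right). Red is positive and blue negative. Ciart and Nr1d1 have r = 0.68 over all libraries and 0.84 within groups.

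Among 13671 genes with a symbol and a mean of at least 1 CPM, the gene most like Ciart over the 12 libraries was Aif1 (r = 0.92), a microglial marker, and Dbp was the fifth (r = 0.89). The gene most like Per1 was Jag2 (r = 0.94), a Notch ligand, followed by Lmna (r = 0.89), which encodes a nuclear lamin. Clock was most like Dmxl1, Trappc8 and Phip (r = 0.97, 0.97 and 0.96), and Npas2 most like Dlgap4, Nog and Pacsin1 (r = 0.96, 0.95 and 0.95). Nr1d1 was most like Zfp362 (r = 0.90), Nr1d2 most like Hsd17b7 (r = 0.93), Per2 most like Ctdspl (r = 0.91) and Per3 most like Sec24a (r = 0.91). For Cry1 it was Chn2 (r = 0.90) and for Cry2 Slc9a9 (r = 0.84). These are the highest of many values over few libraries and were not tested.

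Libraries also differed in how genes of high and low GC content were represented, and several members moved with this. The mean deviation of the GC-richest 10% of genes minus that of the GC-poorest 10% was -0.10, 0.15, 0.25 and 0.17 log2 units in Treatment replicates 1 to 4. It was -0.004, -0.13, -0.05 and -0.18 in Model and -0.05, 0.07, -0.12 and -0.01 in Control. Across the 12 libraries this contrast had r = -0.82 (rho = -0.76) with Clock, whose longest annotated transcript has 40.9% GC, r = 0.71 (rho = 0.66) with Nr1d1 (56.8% GC) and r = 0.56 (rho = 0.57) with Per1 (59.4% GC). Ciart, at 52.2% GC, had r = 0.55, Npas2 (52.3% GC) r = 0.62 and Cry1 (51.6% GC) r = 0.54. The members did not all follow their GC content. Cry2 (55.6% GC) had r = -0.02, Per2 (54.3% GC) r = 0.09, Per3 (52.4% GC) r = -0.29 and Nr1d2 (41.8% GC) r = -0.25. Without the 2 libraries farthest from the median contrast, r was -0.57 for Clock, 0.58 for Nr1d1 and 0.74 for Per1. GC content was known for 93.3% of tested genes. With the trends on GC content and length removed, Ciart remained called in Model against Control (-0.91 ± 0.21, adjusted p = 0.0335, edgeR) and the Clock difference there was 0.15 ± 0.04 with an adjusted p of 0.07. In Treatment against Model no member was called under this setting.

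**Figure D5:**
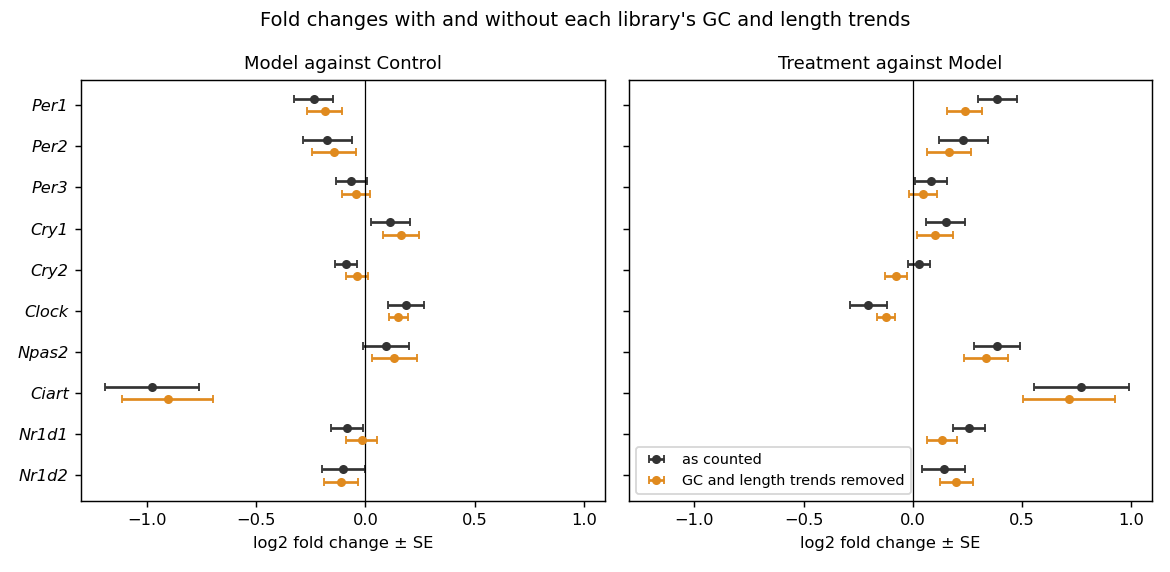
Log2 fold changes ± SE (x axis, log2 units) of the 10 clock genes as counted and with each library's trends on GC content and transcript length removed, for Model against Control (left) and Treatment against Model (right). The Per1 change in Treatment against Model is 0.39 as counted and 0.24 with the trends removed.

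Another 25 genes of the clock pathway were measured, covering the BMAL and ROR activators, the output factors and the kinases, ubiquitin ligases and other modifiers of PER and CRY; the list was chosen with earlier results of these data known. In Model against Control 0 rose, 2 fell and 23 did not pass, with a median of 0.10 beside -0.01 over all genes. Of all genes 0.79% were called there. At an unadjusted p under 0.05 in edgeR there were 11 of 25, beside 15.6% of all genes. Dbp, an output transcription factor driven through E-boxes, had 37.6, 48.9, 53.6 and 53.4 CPM in Model, against 71.7, 68.9, 66.7 and 73.3 CPM in Control. It fell in every Model library relative to every Control library (-0.54 ± 0.12, adjusted p = 0.0473, edgeR). Usp2, a deubiquitinase that acts on PER1 and other clock proteins, had 55.5, 53.8, 57.3 and 58.4 CPM in Model, against 73.8, 66.4, 69.9 and 74.6 CPM in Control (-0.34 ± 0.07, adjusted p = 0.0316, edgeR). In Treatment against Model 1 rose, 0 fell and 24 did not pass, with a median of -0.08 beside 0.00. Of all genes 1.88% were called there. At an unadjusted p under 0.05 in edgeR there were 7 of 25, beside 18.5% of all genes. Dbp had 59.9, 80.2, 70.2 and 90.4 CPM in Treatment, all above Model (0.64 ± 0.12, adjusted p = 0.0199, edgeR), and Usp2 differed by 0.19 with an adjusted p of 0.135. In Treatment against Control and in both stressed groups against Control, 0 of 25 passed in edgeR, with 5 and 11 at an unadjusted p under 0.05 (13.9% and 13.3% of all genes).

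Bmal1, the partner of CLOCK and NPAS2, had 28.3, 24.8, 28.5 and 25.8 CPM in Treatment, 35.3, 29.0, 30.2 and 28.6 CPM in Model and 22.6, 24.8, 24.3 and 28.7 CPM in Control. Treatment lay wholly below Model, and of the Control libraries only replicate 4 reached the range of Model. Neither the Model against Control difference (0.29 ± 0.09, adjusted p = 0.12) nor that of Treatment against Model (-0.20 ± 0.09, adjusted p = 0.237) passed in edgeR. Over the 12 libraries Dbp had r = 0.88 with Ciart (rho = 0.88) and r = 0.83 with Nr1d1 (rho = 0.87), and 0.80 and 0.86 within groups. Bmal1 had r = -0.67 with Ciart (rho = -0.50) and -0.21 within groups.

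The ROR genes, whose products activate where NR1D1 and NR1D2 repress, did not pass. Rora differed by -0.35 ± 0.24 in Model against Control (adjusted p = 0.525, edgeR), where Control replicate 1 stood at 124 CPM and the other 3 Control libraries between 51.1 and 54.9 CPM. Rorb differed by 0.40 ± 0.14 in Treatment against Model (adjusted p = 0.135, edgeR).

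Since Per1 and Per2 are known to respond to glucocorticoids and to neuronal activity, targets of both were counted as well. Of 18 glucocorticoid target genes 17 were tested and 0 passed in any of the 4 comparisons in edgeR, beside 0.79%, 1.88%, 0.102% and 0.22% of all genes in Model against Control, Treatment against Model, Treatment against Control and both stressed groups against Control. At an unadjusted p under 0.05 there were 8 of 17 in Model against Control (15.6% of all genes) and 4 of 17 in Treatment against Model (18.5% of all genes). There were 5 of 17 in Treatment against Control (13.9% of all genes) and 5 of 17 in both stressed groups against Control (13.3% of all genes). Of 20 activity-regulated genes 4 rose and 0 fell in Model against Control, where 0.79% of all genes were called, namely Fosb (0.87), Inhba (0.83), Homer1 (0.69) and Egr3 (0.50 log2 units). The list did not rise as a whole there. Its fold changes were positive for 11 genes and negative for 9, with a median of 0.02 beside -0.01 for all genes. At an unadjusted p under 0.05 in edgeR there were 9 of 20, beside 15.6% of all genes. In Treatment against Model 0 of 20 passed in edgeR and 6 had an unadjusted p under 0.05, beside 18.5% of all genes. In Treatment against Control, where 0.102% of all genes were called, 3 rose, namely Fosb (0.82), Nptx2 (0.77) and Egr3 (0.64 log2 units), and 0 fell. In both stressed groups against Control, where 0.22% of all genes were called, 4 rose and 0 fell. These were Fosb (0.84), Nptx2 (0.65), Homer1 (0.62) and Egr3 (0.57 log2 units). In the main fit neither Per1 nor Per2 was called in Model against Control or in Treatment against Control. Per1 was called higher in Treatment against Model, where 0 of 17 glucocorticoid targets and 0 of 20 activity-regulated genes passed, and Per2 was not called there.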

How the data were processed

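Poly(A) RNA of 12 hippocampus libraries was measured, 4 per group by the sample labels. The submitters' processing notes name STAR 2.7.10a, Salmon 1.10.1, cutadapt 3.4, Trim Galore 0.6.7, FastQC 0.12.1 and the build GRCm39 (mm39); their roles, annotation release and strand setting are not given in the sources used here. The table deposited by the authors gives, for each gene and library, an estimated count that was not scaled (28.8% of nonzero values are not whole within 1e-06). Beside it stands the deposited FPKM, which by its name is per length and library total. Every value column was mapped to a sample.

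Estimated counts were rounded and fitted in R 4.3.3 with edgeR 4.0.16 (filterByExpr, TMM scaling, quasi-likelihood fit of all 12 libraries together, with group means as coefficients). P-values were adjusted by Benjamini-Hochberg over the 18600 genes tested and called under 0.05. SE is the log2 fold change divided by the root of its F statistic. The procedure was tested on simulated data. Precision rests on library totals of 17083260 to 27479083 and on a biological coefficient of variation of 10.7%.

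The 10 genes and all lists were chosen with earlier results of these data known. All 10 were named in every comparison. Of the other clock genes those that passed were named, plus Bmal1, Dbp, Rora and Rorb. The 5 genes of highest Pearson r over the libraries were sought for each member, of which up to 3 were named. Marker lists for 11 regions and cell types were scored as mean log2 CPM. The text gives the hippocampal neuron, choroid plexus and microglial lists and those whose summed ranges did not overlap in Model against Control or Treatment against Model.

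Alternatives were RLE scaling, DESeq2 1.42.0, limma-voom (limma 3.58.1), no count filter, at least 1 CPM in 8 libraries, fits of only the groups compared, a replicate block, leaving out each library or Treatment replicates 2 and 3 together, and the choroid plexus score as a covariate. The deposited FPKM values were tested in limma as log2(FPKM + 0.1) and log2(FPKM + 1) for genes with at least 0.5 in 4 libraries, and without that filter. Offsets for loess trends on GC content and length, from the longest GENCODE vM21 transcript (build GRCm38) by gene ID, were added after seeing the data. Promoters came from RefSeq by symbol. Figures used Python 3.11.15 and matplotlib 3.10.9; tables data.table (version 1.17.8).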

Additional observations from a re-analysis of the deposited data

Results flagged for a closer look

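In 3 of the 30 sets of 4 libraries (10 genes in 3 groups) the lowest or highest value stood apart from the others by Dixon's test at the 95% level, where chance gives about 1 in 20. Per1 had 54.98 CPM in Model replicate 2, below the other 3 Model libraries at 57.58 to 57.82 CPM. Per3 had 53.95 CPM in Model replicate 1, below the others at 61.09 to 62.51 CPM. Nr1d2 had 128.2 CPM in Control replicate 1, above the others at 110.6 to 112.1 CPM. None of these values belongs to a change that was called in Model against Control. The low Per1 value does belong to the change called in Treatment against Model. It lay on the side away from Treatment and so widened that difference. Without Model replicate 2, 0 members and 0 genes of all those tested were called in Treatment against Model. The same counts of 0 held without Model replicate 3, whose Per1 value was not flagged. Over the 12 omissions of a library the Per1 change lay between 0.30 and 0.46 log2 units. Whether the low Per1 value had a part in the lost call was not tested.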

How the results depend on the processing

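The number of clock genes called was 1 in Model against Control, 1 in Treatment against Model, 0 in Treatment against Control and 0 in both stressed groups against Control. It was the same under RLE scaling, with at least 1 CPM in 8 libraries and without Treatment replicates 2 and 3. In Model against Control it was 2 (Per1 and Ciart) in a fit of only the groups compared, and 0 with the choroid plexus covariate, in limma-voom (Ciart adjusted p = 0.0559) and in each of the 3 FPKM settings. In Treatment against Model it was 4 without a count filter and in DESeq2, and 0 with only the groups compared, in the 3 FPKM settings and with GC content and length trends removed. In Treatment against Control it was 1 (Npas2) without a filter and in DESeq2. With a replicate block it was 1 there too (Npas2, adjusted p = 0.0438) and otherwise as in the unblocked fit; same-numbered libraries deviated together with r of -0.04 to 0.111, over 0.1 in 1 of 12 pairs, and 4 of 12 libraries correlated best with their own number, so the numbers were not taken as pairing. In both stressed groups against Control it was 2 without a filter. Leaving out each library gave 0 to 1 in Model against Control and 0 to 4 in Treatment against Model. No separate fit of only the groups compared exists for both stressed groups against Control, which uses all libraries. The median correlation between members was 0.179 within groups. Signs turned only for small differences (log2). With the choroid plexus covariate Npas2 was -0.0564 in Model against Control, and Per3 0.0326 and Nr1d1 -0.0093 in both stressed groups against Control. Without Treatment replicates 2 and 3 Clock was 0.0676 in Treatment against Control and Nr1d2 0.0083 in both stressed groups against Control. Nr1d2 in Treatment against Control was -0.0352, -0.034 and -0.0352 in the FPKM settings. With GC content and length trends removed Cry2 was -0.0762 in Treatment against Model and Clock 0.0276 in Treatment against Control. Leaving out single libraries, values in Treatment against Control ran from -0.025 to 0.1671 for Per2, -0.0276 to 0.0666 for Per3, -0.1137 to 0.0549 for Clock and -0.013 to 0.1117 for Nr1d2. In both stressed groups against Control they ran from -0.0457 to 0.0062 for Per3 and -0.0765 to 0.0258 for Nr1d2. Over all genes the called counts also moved: 147 in Model against Control became 783 without a filter and 2 with the choroid plexus covariate, and 350 in Treatment against Model became 1090 and 360. The causes were not tested. With 4 libraries per group and no stated hour of collection, shifts in the timing of the clock cannot be told apart from shifts in its level.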
